A study of Mus musculus with 4 samples.

Results

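In naive mouse embryonic stem cells, 3106 Pcbp1 ChIP-seq peaks lay inside protein-coding genes and had no counterpart in primed epiblast-like cells. They were 25.6% of the 12132 peaks called in the naive state (95% exact binomial interval 24.8 to 26.4). A peak was taken where it shared no base with any of the 3494 peaks of the primed list, where its summit fell inside the body of a RefSeq protein-coding gene, and where that summit was more than 1 kb from every protein-coding gene end. The peaks were thus selected on the calls of both peak lists and on the summit's position, so the absence of an EpiLC peak and the distance of over 1 kb are definitions here and not findings. Of the 3453 Naive peaks inside gene bodies, 90.0% had no overlap with an EpiLC peak, against 86.3% of all Naive peaks. The other 347 gene-body peaks of the Naive list overlapped an EpiLC peak and are called shared, and 604 of the 956 EpiLC gene-body peaks (63.2%) overlapped no Naive peak and are called EpiLC-only.

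The study used 4 libraries of the mouse line E14 Tg2a, an established embryonic stem cell line, with no replicates. The 2 primed libraries, a Pcbp1 ChIP and an input, came from epiblast-like cells (EpiLC) kept on fibronectin for 48 hours in N2B27 with 12 ng/ml bFGF, 20 ng/ml Activin A and 1% KOSR. The 2 naive libraries, again a Pcbp1 ChIP and an input, came from cells held for 3 passages without serum in LIF with the MEK inhibitor PD0325901 at 1 uM and the GSK3β inhibitor CHIR99021 at 3 uM, the culture from which the EpiLC were derived. Chromatin was fixed with formaldehyde and sheared to about 500 bp in all 4. Expression was not measured in these libraries, so the naive and primed labels rest on the culture conditions. With 1 library per state there is no test between states, and every interval below covers counting error only.

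Pcbp1 is a poly-C-binding protein. Its KH domains bind C-rich single-stranded RNA and DNA, and it is known for work in RNA splicing, stability and translation, as a factor at some promoters, and as an iron chaperone. Naive cells correspond to the epiblast before implantation and depend on a network of factors that includes Esrrb, Tbx3, Tfcp2l1 and Nr5a2, which is shut down as cells become primed. Gene bodies hold introns, exons, alternative promoters and enhancers. No exon annotation was used here, so peaks are placed by gene, strand and distance and not as exonic or intronic.

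The sequences below show alternative promoters inside genes, the one class of gene-body element for which both sequence and peaks were at hand. Each is a RefSeq window on GRCm38.p6 (mm10) of 300 bases, from 250 before to 50 after an annotated start that lies inside its gene, on the gene's strand, and each holds the summit of a Naive-only peak. Hyal2 (hyaluronidase 2) and Fbxo33 (an F-box protein) had the highest and second-highest folds among the 82 windows that hold a summit, Nr5a2 belongs to the naive network, and Hnrnpl encodes an RNA-binding splicing regulator. Capitals mark runs of at least 5 C, or of at least 5 G, which are C on the other strand.
Hyal2, chr9:107568913-107569212, plus strand: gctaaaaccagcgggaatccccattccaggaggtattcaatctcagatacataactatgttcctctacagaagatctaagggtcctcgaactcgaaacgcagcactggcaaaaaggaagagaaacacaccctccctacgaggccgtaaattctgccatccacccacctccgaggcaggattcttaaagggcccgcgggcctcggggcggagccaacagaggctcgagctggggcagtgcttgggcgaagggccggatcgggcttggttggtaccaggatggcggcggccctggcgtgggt
Fbxo33, chr12:59219434-59219733, minus strand: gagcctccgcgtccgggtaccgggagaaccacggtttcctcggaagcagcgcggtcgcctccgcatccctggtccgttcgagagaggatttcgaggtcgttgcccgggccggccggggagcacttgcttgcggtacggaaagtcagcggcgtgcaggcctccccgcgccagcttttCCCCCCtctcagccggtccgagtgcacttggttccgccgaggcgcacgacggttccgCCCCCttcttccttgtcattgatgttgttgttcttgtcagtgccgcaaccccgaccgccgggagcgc
Nr5a2, chr1:136953581-136953880, minus strand: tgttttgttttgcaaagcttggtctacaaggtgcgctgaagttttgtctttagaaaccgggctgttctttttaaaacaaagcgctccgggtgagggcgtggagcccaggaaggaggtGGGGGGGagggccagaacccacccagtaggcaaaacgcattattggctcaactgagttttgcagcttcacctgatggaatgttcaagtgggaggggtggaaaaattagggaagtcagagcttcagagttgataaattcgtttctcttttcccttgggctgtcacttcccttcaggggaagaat
Hnrnpl, chr7:28810640-28810939, plus strand: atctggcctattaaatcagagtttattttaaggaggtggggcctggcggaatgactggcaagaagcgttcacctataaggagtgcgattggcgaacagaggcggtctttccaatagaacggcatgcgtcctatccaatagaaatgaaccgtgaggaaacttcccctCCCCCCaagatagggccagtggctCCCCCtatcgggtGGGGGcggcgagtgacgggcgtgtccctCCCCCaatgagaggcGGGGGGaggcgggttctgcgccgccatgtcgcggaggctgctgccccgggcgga

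The windows differ widely in base composition. The Fbxo33 window had 67% G or C and a CpG content of 1.07 times that expected from its bases, while the Nr5a2 window had 49% and 0.412. The Hyal2 window held no such run, although its peak had a fold of 9.95 (7.64 to 12.8), the highest of any Naive-only peak over an internal start. The fold is the authors' peak height over local background at the summit. The interval in brackets is the 95% Poisson interval on the reads piled up at the summit, which were recovered from the deposited fold and p-value for every peak of both lists. The Nr5a2 peak had a fold of 6.38 (4.40 to 8.98), the Fbxo33 peak 9.19 (6.76 to 12.2) and the Hnrnpl peak 4.55 (2.92 to 6.78).

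Most Naive-only gene-body peaks were modest in height. Their median fold was 4.40, with quartiles of 3.80 and 5.38 and a maximum of 22.98, on a median of 24 reads at the summit. EpiLC-only gene-body peaks had a median of 3.602, and shared gene-body peaks, in the Naive list, 4.71. The median width was 347 bp (222 to 2050), against 298 bp in EpiLC-only and 418 bp in shared peaks. A fold of at least 10 was reached by 68 Naive-only gene-body peaks (2.19%, 1.704 to 2.77), close to the 2.39% of all Naive peaks. It was reached by 0.331% of EpiLC-only gene-body peaks (2 of 604), 4.03% of shared ones (14 of 347), 0.223% of Naive-only peaks at gene ends (7 of 3133) and 2.81% of Naive-only peaks outside genes (119 of 4236). The interval at gene ends, 0.0899 to 0.460, lies below those inside genes and outside them.

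**Figure D1:**
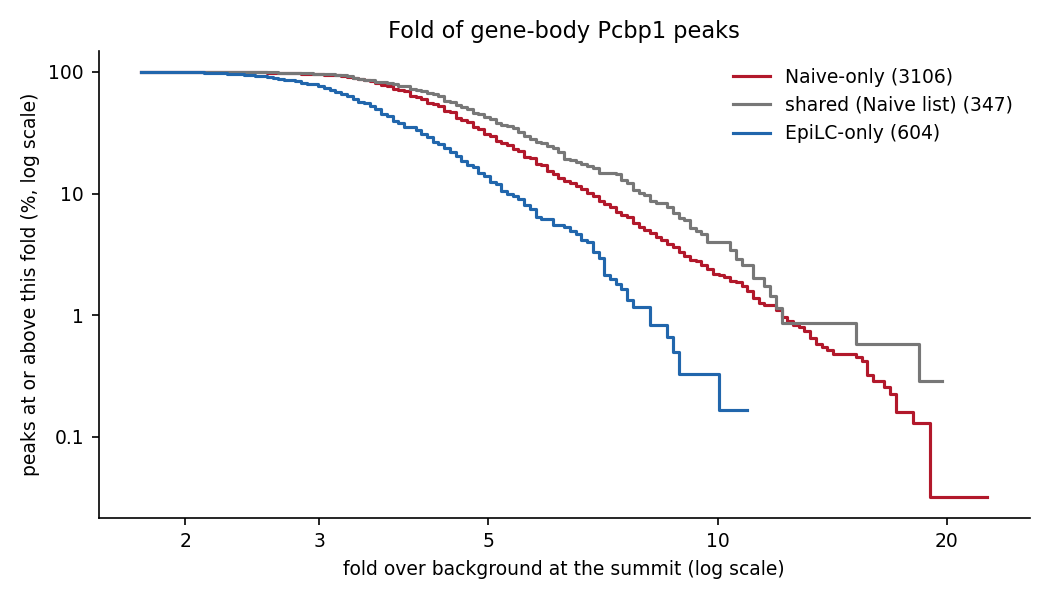
Share of gene-body peaks (percent, log scale) at or above each fold over background (log scale), for 3106 Naive-only, 347 shared and 604 EpiLC-only peaks. The Naive-only curve reaches a fold of 22.98 and lies between the other curves at a fold of 5, with 30.9% of its peaks there, against 14.2% of EpiLC-only and 42.9% of shared peaks; the Naive and EpiLC folds come from libraries of different depth.

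The highest peaks sat in genes of varied function. The highest of all lay 9.36 kb from an end of Ubxn2a, which encodes a UBX-domain protein (chr12:4897797-4898560), with a fold of 22.98 (18.99 to 27.6) on 114 reads. It was followed by Accsl (19.2, 15.8 to 23.2), by Sptlc2, a subunit of serine palmitoyltransferase, which joins serine to a fatty acid in sphingolipid synthesis (19.2, 15.6 to 23.4), and by Dab2ip, a Ras GTPase-activating protein (19.2, 15.7 to 23.2). These 4 intervals overlap. Thada, the retinal transporter gene Abca4, a peak in the overlapping genes Cmss1 and Filip1l, the Fanconi anaemia gene Fancm, Car8 and Tenm3 came next, with folds of 18.1 to 16.2. The ubiquitin ligase gene Traf6 (15.99), the kinase gene Sgk1 (15.8), Epb41l4a (15.8), Epp13 (15.6), the zinc transporter family gene Slc39a11 (15.4), Septin1 (14.4), the ketone body enzyme gene Bdh1 (13.99), Cdc37l1 with Ak3 (13.7), Dym (13.6) and C1qtnf3 (13.6) complete the first 20. For all 20, the nearest EpiLC peak was at least 27.7 kb away, the smallest distance being that of the Accsl peak. None of the 68 peaks of fold 10 or more covered an internal start of its gene, which allows a share of up to 4.41% (3 counts of 68).

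Strong local background touched few of them. In 50 of the 3106 peaks the local background was over 3 times the lowest in the Naive list, and the most extreme, in Chl1, reached 34.0 times with a fold of 1.98 on 270 reads. Sfi1, Cldn34d, a second peak in Cmss1 and Filip1l, and Aida followed, with 24.2 to 29.1 times. The widest peaks were in Etl4 (2050 bp, fold 12.2), Arhgef10l (1930 bp, 7.82), Epp13 (1798 bp, 15.6), Pigl (1701 bp, 12.04) and 9030025P20Rik (1691 bp, 2.39). The last had 5.39 times the lowest background.

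The EpiLC list holds no value where no peak was called, so a level in EpiLC is not known at any of these sites. The EpiLC library was the deeper one at its peaks, with a median of 45 reads at the summit against 24 in Naive, and its lowest background was 7.43 reads against 4.004. At that background, 22 reads, a fold of 2.73, would have been as significant as the weakest EpiLC peak. Of the 3106 folds, 98.2% (97.7 to 98.6) would pass there if they were the same in EpiLC. That share was largely set by the calling of the Naive peaks. At the lowest Naive background, a peak of 14 reads, the fewest at any of these summits, already exceeds a fold of 2.73. The share therefore says little of whether EpiLC depth sufficed. Folds differ between the libraries, though. At shared gene-body peaks the EpiLC fold was the lower at 261 of 347 (75.2%), with a median EpiLC over Naive ratio of 0.759. With every fold multiplied by that ratio, 2571 of the 3106 (82.8%, 81.4 to 84.1) would pass. The ratio rests only on peaks called in EpiLC, with the highest EpiLC fold taken where several overlapped. A ratio at sites without an EpiLC call is not known, and the interval leaves this out. An EpiLC peak lay within 500 bp of 35 of the Naive-only peaks, within 10 kb of 246 (7.92%) and within 100 kb of 1065 (34.3%).

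Naive-only gene-body peaks were spread over 988 Mb of gene interior at 3.14 per Mb (3.03 to 3.25). Naive-only peaks outside genes stood at 2.55 per Mb (2.47 to 2.62), EpiLC-only gene-body peaks at 0.611 per Mb and shared ones at 0.351 per Mb. Their density was highest just beyond the 1 kb limit and lowest deep inside long genes. It was 8.23 per Mb at 1 to 2 kb from the nearest gene end, 4.96 at 2 to 5 kb, 3.83 at 5 to 10 kb, 3.41 at 10 to 20 kb, 2.94 at 20 to 50 kb, 2.51 at 50 to 100 kb and 1.49 beyond 100 kb. Within 10 kb of an end lay 39.99% of the peaks (38.3 to 41.7), on 25.5% of the interior, against 46.2% of EpiLC-only and 48.1% of shared gene-body peaks. The median distance was 15.2 kb and the largest 962 kb.

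The density near gene ends was a property of the 5′ side. For the 17492 of 21887 protein-coding genes (79.9%) whose strand the RefSeq promoter table gives, 1486 of 2470 pairs of peak and gene (60.2%, 58.2 to 62.1) had the summit nearer to the 5′ end of the gene than to its 3′ end. At 1 to 2 kb from the 5′ end there were 14.0 Naive-only peaks per Mb (12.2 to 16.1), and at the same distance from the 3′ end 3.10 per Mb (2.25 to 4.16), intervals that do not overlap. Between 50 and 100 kb, density was 2.57 per Mb on the 5′ side and 2.73 on the 3′ side, with overlapping intervals. The 5′ share was 61.4% (57.0 to 65.7) in EpiLC-only and 64.4% (58.4 to 70.0) in shared gene-body peaks, so that the intervals of all 3 sets overlap and a 5′ excess was common to them.

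**Figure D2:**
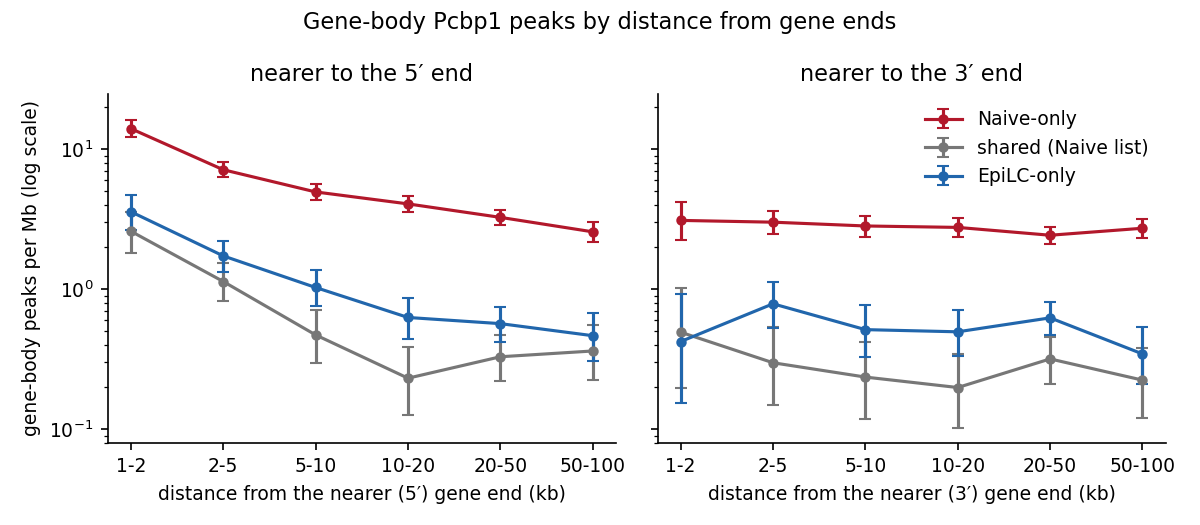
Gene-body peaks per Mb (log scale) by distance in kb from the nearer gene end, for peaks nearer to the 5′ end (left) and to the 3′ end (right); points are densities of Naive-only, shared and EpiLC-only peaks and bars 95% Poisson intervals. Naive-only density falls with distance on the 5′ side, with 14.0 per Mb at 1 to 2 kb and 2.57 at 50 to 100 kb, and stays between 2.43 and 3.10 per Mb on the 3′ side.

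Some peaks lay on alternative promoters. The 300-base window of an internal annotated start of the host gene was touched by 211 of the 3106 peaks (6.79%, 5.93 to 7.74), in 209 genes. Not every such peak covered the start itself. The share was 4.64% (3.10 to 6.63) in EpiLC-only and 11.5% (8.36 to 15.4) in shared gene-body peaks, and the interval of the shared peaks lies above that of the Naive-only ones. Seen from the promoters, 243 of 3881 internal start windows (6.26%, 5.52 to 7.07) were touched by a Naive-only peak. All Naive-only gene-body peaks together covered 0.130% of the bases of the gene interior. A window of 300 bases is touched more often than a single base is covered, so no excess can be read from these shares. A rate for other windows at the same distance from gene ends was not computed. Summits lay on either side of the start, at a median distance of 143 bp (quartiles 78 and 229.5 bp), with 167 of 211 (79.1%) within 250 bp. The peaks were not taller for it, with a median fold of 4.35 against 4.40 in all other Naive-only gene-body peaks. They were nearer to gene ends, at a median of 3.29 kb against 16.8 kb, so the internal starts and the 5′ density describe in part the same peaks.

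Hyal2 was followed by Cnpy1 (9.56), by Nfyc, a subunit of the CCAAT-binding factor (9.36), by Fbxo33 and by Gpr108 (8.99). Of the genes in the lists described further on, 8 had a peak that touched an internal start window. Besides Nr5a2 and Hnrnpl these were Hnrnph1, another splicing regulator (5.19, 3.43 to 7.56), Dnmt1, the maintenance DNA methyltransferase (chr9:20952440-20953104; 4.40, 2.83 to 6.57), the amino acid transporter family gene Slc38a9 (4.20), Zfp57 (4.12), the branched-chain aminotransferase gene Bcat1 (3.99) and the hexokinase gene Hk1 (3.26). The Zfp57 and Hk1 peaks met the window but not the start itself. Windows of lncRNA starts inside coding genes were touched less often, by 42 peaks (1.35%), at 45 of 2790 windows (1.61%, 1.18 to 2.15).

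Internal start windows touched by a Naive-only peak, here called covered, were richer in CpG than the uncovered ones. Over the 209 windows under a Naive-only peak, the median ratio of observed to expected CpG was 0.754. It was 0.371 in 3548 internal windows under no peak of either list and 0.605 in windows of starts at coding gene ends. Median GC content was 58.3%, 54.0% and 57.0% in the same order. The internal windows were not matched for distance from gene ends, and no interval was computed for these medians. C-rich letters did not set the covered windows apart. The windows are not the sequence of the peaks, and only 82 internal windows held the summit of a Naive-only peak. A run of 5 C (CCCCC, either strand) occurred in 59.8% of covered windows (52.8 to 66.5), in 57.4% of uncovered ones (55.7 to 59.0) and in 51.0% of all 32851 start windows. CCCTCCC, either strand, was found in 24.9%, 27.5% and 22.0% of the same sets, and CCCACCC in 19.6%, 19.8% and 17.5%. The E-box CACGTG occurred in 10.05% of covered windows (6.33 to 14.9), 6.06% of uncovered (5.30 to 6.90) and 7.15% of all. The octamer ATGCAAAT, the letters of the Oct4 site, was in 2 of 209 covered windows (0.957%), 1.47% of uncovered and 1.74% of all. TCAAGGTCA, the letters of the Esrrb and Nr5a2 site, was in 0 of 209, which allows up to 1.44% (3 counts of 209), against 0.366% and 0.423%.

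The 3106 peaks were hosted by 2162 of 21887 protein-coding genes, or 9.88% (9.49 to 10.3). One peak each was found in 1541 hosts, 388 had 2 and 233 (1.06% of all genes) had 3 or more, while 31 peaks lay in overlapping genes and count for each. Host genes were long, at a median of 69.1 kb against 17.2 kb for all genes. Of genes over 300 kb, 47.9% were hosts, against 1.26% of genes under 10 kb, but density ran the other way, at 1.69 pairs of peak and gene per Mb in the longest class and 5.93 in the shortest. Another Naive-only gene-body peak lay within 10 kb of 897 peaks (28.9%, 27.3 to 30.5). The figure was 12.3% for EpiLC-only and 9.80% for shared gene-body peaks, which are smaller sets. With the Naive list shortened to the 3494 strongest peaks it was 10.1% for the Naive-only peaks.

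Dym, the gene of the Golgi protein dymeclin, and Etl4 had the most peaks, 11 each. All 11 in Dym lay between 192 and 247 kb from the left end of this 268 kb gene, with folds of 2.66 to 13.6, while those of Etl4 were strewn over 561 kb. Arid5b, the gene of a chromatin protein with an AT-rich interaction domain, had 10, with folds of 3.93 to 8.39. Zfp978 had 9, of which 7 stood in a local background of over 3 times the lowest. Slc39a11, Esrrb, the zinc finger factor gene Glis3, Etv5, Auts2 and the unconventional myosin gene Myo10 had 8 each. Per length the order differed. Among hosts of 3 or more peaks, dense ones were Agtrap, the calpain subunit gene Capns1, Pgpep1, H2-M5, Tbx3, Septin1, Spats1, Patz1 and Zfp59, with between 33.3 per 100 kb (Agtrap) and 16.003 (Zfp59).

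**Figure D3:**
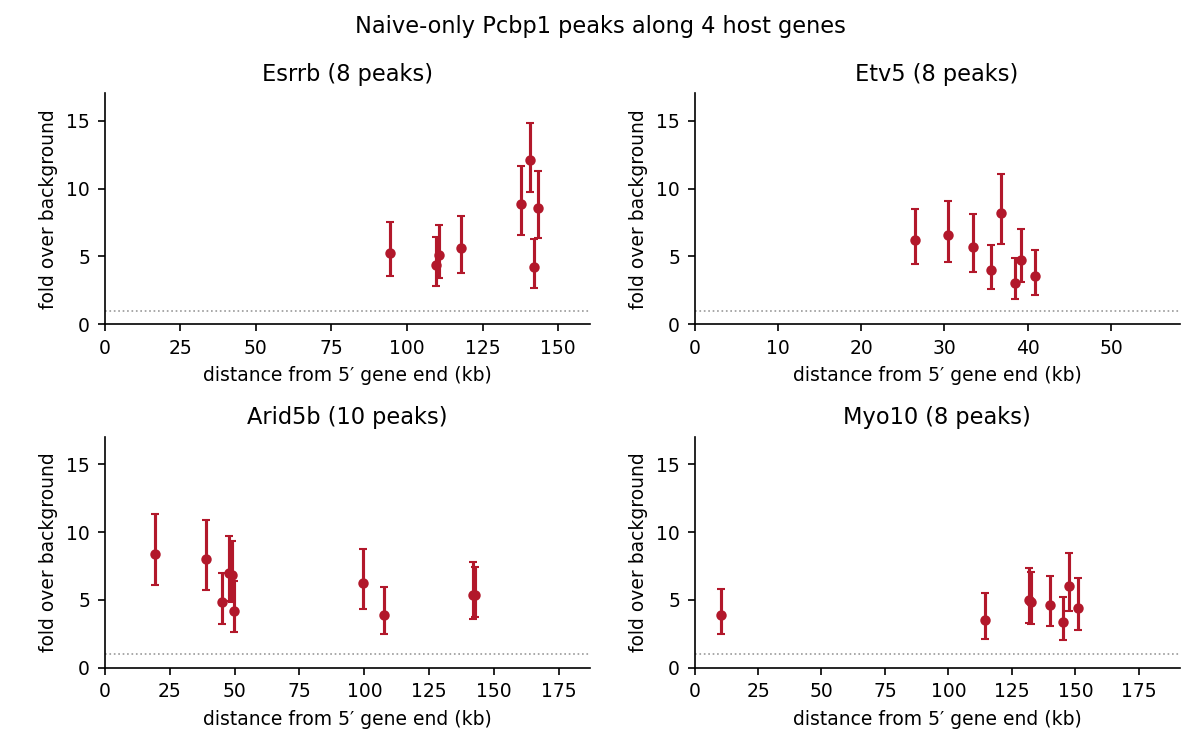
Fold over background of each Naive-only peak (points, with 95% Poisson intervals) against its distance in kb from the 5′ end of Esrrb, Etv5, Arid5b and Myo10; each axis spans the whole gene and the dotted line marks a fold of 1. The Esrrb peaks lie between 94.2 and 143 kb and the Etv5 peaks between 26.5 and 40.9 kb, so both sets sit in a stretch of their gene, while those of Arid5b run over 19.5 to 142 kb.

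A Naive peak at a gene end was found, in the full list, at a larger share of hosts than of other genes. One was found within 1 kb of an end in 513 of 2162 hosts (23.7%, 21.9 to 25.6) and in 3717 of 19725 other genes (18.8%, 18.3 to 19.4), with 19.3% over all genes. The difference was not seen with the Naive list shortened to the 3494 strongest peaks, where the shares were 5.34% (3.80 to 7.25) in hosts and 5.45% (5.14 to 5.76) in other genes. With the full list, the share was the larger in hosts in each class of gene length. For genes under 10 kb it was 37.0% against 16.1%, for 10 to 30 kb 34.6% against 23.4%, for 30 to 100 kb 25.7% against 20.2%, for 100 to 300 kb 16.1% against 12.8% and over 300 kb 10.1% against 5.86%. In the last 3 classes the gap was smaller, and for the 2 longest the intervals overlap. EpiLC peaks were also found at hosts. An EpiLC peak in the body or at an end was held by 391 hosts (18.1%), a share not computed over all genes. Of these, 141 had an EpiLC-only peak in the body (6.52% of hosts, against 2.46% of all genes) and 136 a shared one (6.29% against 1.47%). These shares were not split by gene length, and hosts were the longer genes (median 69.1 kb against 17.2 kb). They therefore do not show an excess over other genes of the same length. Tfap2a held the most EpiLC-only peaks among hosts, 5 beside 2 Naive-only ones, and Pde4d had 3 of each.

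Genes of the naive network carried the densest peaks of the 24 gene lists examined. Of 26 naive pluripotency genes, 8 were hosts (30.8%, 14.3 to 51.8), against 9.88% of all genes, and their interiors held 23 peaks, or 38.8 per Mb (24.6 to 58.2), against 3.14 over all genes and 5.93 in genes under 10 kb. The 26 genes had a median length of 9.40 kb. Without Esrrb, which had 8 of the 23, density was 34.5 per Mb. The median fold was 5.15, against 4.40 over all 3106. No gene of the list had an EpiLC-only or a shared peak in its body, against 2.46% and 1.47% of all genes, shares at which 26 genes can readily hold none. Among the 8 hosts of the list, only Tbx3 had an EpiLC peak at a gene end. The density interval of the list, 24.6 to 58.2, overlaps those of trophectoderm, glycolysis, and DNA methylation and Tet genes, described further on. A surplus of Naive-only peaks around naive genes was known when the list was drawn up, so these values are a description and no independent evidence.

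Esrrb encodes an orphan nuclear receptor that activates genes of the naive state. Its 8 peaks had, from the 5′ end onwards, folds of 5.25, 4.35, 5.07, 5.60, 8.85, 12.1, 4.20 and 8.56. The 4 nearest the 3′ end lay within 5.58 kb of each other, and the highest (chr12:86501508-86502272) had an interval of 9.75 to 14.8. That peak stood above the 5 weaker of the 8 beyond counting error. Tbx3, a T-box factor that helps to hold the naive state, had 3 peaks of 9.79 (chr5:119679815-119681078; 7.27 to 12.9), 3.83 and 3.26 in 14.2 kb. Tdh, the threonine dehydrogenase gene on which threonine breakdown in mouse embryonic stem cells depends, had 2, of 9.67 (chr14:63500040-63500657; 7.21 to 12.7) and 7.37. Jam2, an adhesion molecule gene, had 6.69 and 3.32, Nr5a2 had 6.38 and 5.29, and Tfcp2l1, a naive transcription factor gene, had 4.40, 5.15 and 4.59. Pecam1, an adhesion molecule of naive cells, had 4.66 and 4.15, and Zfp57, a zinc finger gene that protects imprints, had 4.12.

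Primed genes were hosts at a share near that of all genes, with most of their peaks in 1 gene. Of 29 primed pluripotency genes, 4 were hosts (13.8%, 3.89 to 31.7, against 9.88% of all genes), with 11 peaks at 7.22 per Mb (3.61 to 12.9), but 8 of the 11 were in Etv5, and without it the list stood at 2.05 per Mb. Etv5 encodes an ETS factor of the FGF pathway. Its 8 folds ran from 3.08 to 8.20, the highest at chr16:22402537-22403273 (5.94 to 11.05). Etv5 also had an EpiLC peak at a gene end. Nes (5.82), the primed factor gene Otx2 (4.60, 2.95 to 6.86) and the Nodal antagonist gene Lefty2 (3.45) had 1 each. Nes also had an EpiLC peak at a gene end, and Otx2 an EpiLC-only peak in its body. Core pluripotency genes, active in both states, had 2 hosts of 19 (10.5%), Mycn (6.23) and Sall4 (5.35).

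Most signalling genes held no peak, but each signalling list had a larger share of hosts than the 9.88% of all genes. Their median gene lengths were also larger, at 33.7 to 61.7 kb against 17.2 kb. Wnt and GSK3 signalling, the pathway acted on by CHIR99021, had 10 hosts of 28 (35.7%, 18.6 to 55.9). It had 13 peaks, at 6.54 per Mb (3.48 to 11.2). Genes of 30 to 100 kb, the class of its median length of 36.5 kb, stood at 4.06 per Mb, within that interval. Tcf7l1, a repressor of Wnt targets, had 8.80 (6.53 to 11.6), the kinase gene Tnik 8.59 and Gsk3b, which encodes the target of the inhibitor, 7.79 (5.67 to 10.5) and 3.597. FGF and ERK signalling had 6 hosts of 29 (20.7%, 7.99 to 39.7), with 7 peaks at 5.68 per Mb (2.28 to 11.7). None was above 4.87, the value in the receptor gene Fgfr2, and Map2k1, which encodes a target of PD0325901, had 4.53. LIF and Stat3 signalling had 4 of 20 (20.0%, 5.73 to 43.7) and 5.44 per Mb (1.77 to 12.7). It was led by Lifr, the LIF receptor subunit gene, with 8.99 (6.59 to 12.0) and 4.58. Nodal, Activin and BMP signalling had 6 of 27 (22.2%, 8.62 to 42.3) and 3.87 per Mb (1.55 to 7.96), near the 3.14 of all genes. The proprotein convertase gene Pcsk6 stood at 7.20 and the transducer gene Smad3 at 5.25. For the FGF, LIF and Nodal lists, the intervals of share and density include the values of all genes.

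**Figure D4:**
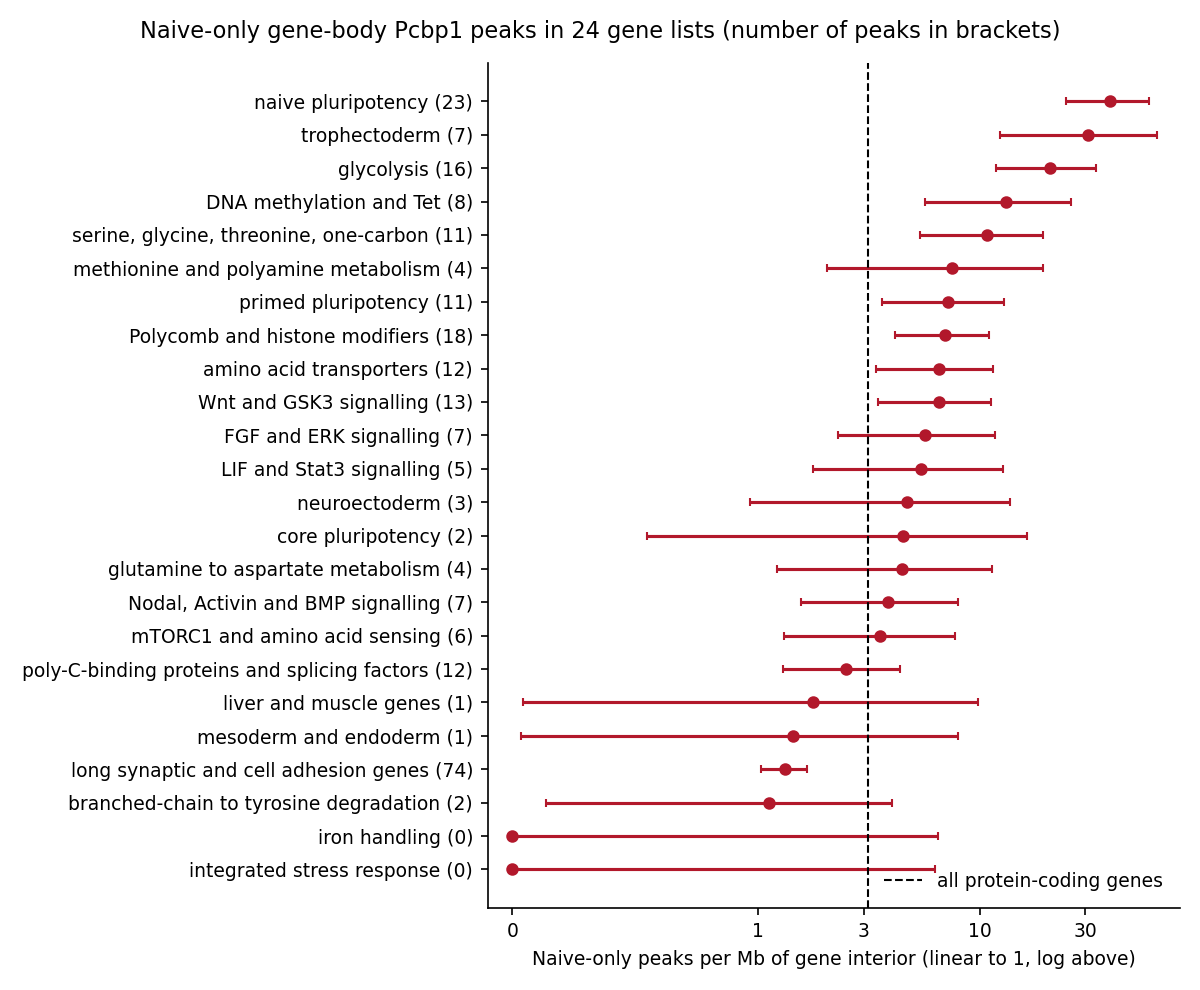
Naive-only gene-body peaks per Mb of gene interior (points, with 95% Poisson intervals; axis linear to 1 and logarithmic above) for 24 gene lists, with the number of peaks in brackets; the dashed line is the 3.14 per Mb of all protein-coding genes. Naive pluripotency leads at 38.8 per Mb, and long synaptic and cell adhesion genes lie below the line at 1.32.

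Chromatin genes held some of the higher peaks. Their median folds were near the 4.40 of all Naive-only gene-body peaks. They were 4.47 for DNA methylation and Tet genes and 4.60 for Polycomb and histone modifier genes. DNA methylation and Tet genes had 6 hosts of 17 (35.3%, 14.2 to 61.7, against 9.88% of all genes) and 13.1 peaks per Mb (5.66 to 25.8). Tet2, an oxidase of 5-methylcytosine, had 13.5 (chr3:133524504-133525222; 10.7 to 16.7) and 6.39, its relative Tet3 had 6.98, and Tet1 had a highest fold of 3.53. Of 42 Polycomb and histone modifier genes, 11 were hosts (26.2%, 13.9 to 42.0), at 6.97 per Mb (4.13 to 11.01). Mtf2, an accessory subunit of Polycomb repressive complex 2, had 12.3 (9.49 to 15.8), the histone methyltransferase gene Setdb1 7.83, and the Polycomb gene Cbx7 had 3 peaks of 4.196 to 5.195.

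Genes of amino acid metabolism, the subject named in the study's title, were not uniform. Serine, glycine, threonine and one-carbon metabolism had 6 hosts of 31 (19.4%, 7.45 to 37.5) and 11 peaks at 10.8 per Mb (5.37 to 19.3), Tdh included. Genes of 10 to 30 kb, the class of its median length of 21.9 kb, stood at 5.24 per Mb. Mthfd1l, a mitochondrial one-carbon enzyme, had 6.10, 6.64 and 4.71, and Tyms, the thymidylate synthase gene, 3.15, 3.87 and 3.73. Amino acid transporters had 7 of 38 (18.4%, 7.74 to 34.3) and 6.56 per Mb (3.39 to 11.5). Genes of 30 to 100 kb, the class of their median length of 35.0 kb, stood at 4.06 per Mb, within that interval. The highest folds were in the mitochondrial aspartate-glutamate carriers Slc25a13 (6.78) and Slc25a12 (6.05). Glutamine to aspartate metabolism had 4 of 31 (12.9%), with the aspartoacylase gene Aspa at 8.15. Methionine and polyamine metabolism had 3 of 24 (12.5%), with Enoph1 at 4.60. For mTORC1 and amino acid sensing it was 4 of 40 (10.0%), with Rptor, the raptor gene, at 5.65. Degradation of branched-chain and aromatic amino acids had 1 of 34 (2.94%), Bcat1, with 7.21 as its higher fold. The intervals of these 4 densities all include 3.14 per Mb. The interval of every host share in this paragraph includes the 9.88% of all genes. The integrated stress response had 0 hosts of 24 genes and iron handling 0 of 28, on 0.584 and 0.568 Mb of interior, for which the upper limits were 6.31 and 6.50 per Mb, so a density like that of all genes was not detectable as different.

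Glycolysis stood higher, with 16 peaks at 20.7 per Mb (11.8 to 33.6). It had 6 hosts of 26 (23.1%, 8.97 to 43.6, against 9.88% of all genes). Slc2a3, the gene of the glucose transporter Glut3, had 6 of the 16, with folds of 5.13, 4.17, 3.39, 3.99, 8.79 (chr6:122766055-122766978; 6.42 to 11.8) and 4.82. Hk1 had 4, of 3.13 to 4.88. Without Slc2a3, density was 14.3 per Mb. The median fold of its 16 peaks, 3.84, was below the 4.40 of all Naive-only gene-body peaks.

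Lineage lists were small, and their densities have wide intervals. Of 13 trophectoderm genes, 4 were hosts (30.8%, 9.09 to 61.4, against 9.88% of all genes). They held 7 peaks, and the list stood at 30.7 per Mb (12.4 to 63.3) on 0.228 Mb. Cdx2, a factor that specifies trophectoderm, had 4.32 and 5.58, Tead4 had 4.10 and 3.65, Tfap2a 3.70 and 4.35, and Tfap2c 4.05. Neuroectoderm had 1 host of 15 (6.67%), Ncam1, with a highest fold of 9.53 and 4.69 peaks per Mb in the list (0.967 to 13.7). Mesoderm and endoderm had 1 of 21 (4.76%), Pdgfra at 3.40, with 1.43 per Mb (0.0363 to 7.99). Liver and muscle genes had 1 of 24 (4.17%), Ttn at 5.99, with 1.77 per Mb (0.0447 to 9.84). Splicing factor genes, listed with those of poly-C-binding proteins, had 10 hosts of 54 (18.5%, 9.25 to 31.4) at 2.50 per Mb (1.29 to 4.36). The highest folds were in Hnrnpr at 9.87 (7.46 to 12.8) and U2af2 at 6.88. Long synaptic and cell adhesion genes showed how host counts follow length. Of 42, 32 were hosts (76.2%), yet the density of the list was 1.32 per Mb (1.03 to 1.65). This density was below the 3.14 of all genes and close to the 1.69 of genes over 300 kb. Dpp6 (11.2) and Kcnip4 (11.05) had the highest folds there.

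A pair of microRNA clusters of embryonic stem cells lay at Naive-only gene-body peaks. The Mir290 to Mir295 cluster is the main one of naive cells, and the Mir302 and Mir367 cluster becomes prominent in primed cells. Their mature sequences, from RefSeq on GRCm38.p6, are shown because several share a seed, bases 2 to 8 in capitals, although the clusters lie on chromosomes 7 and 3.
miR-294-3p: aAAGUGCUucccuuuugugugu
miR-295-3p: aAAGUGCUacuacuuuugagucu
miR-302b-3p: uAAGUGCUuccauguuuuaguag
miR-302d-3p: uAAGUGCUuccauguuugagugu
miR-293-3p: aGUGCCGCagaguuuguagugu

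The first 4 have the seed AAGUGCU, known from the cell cycle and pluripotency functions of these families, and miR-293-3p has GUGCCGC. A peak of fold 3.79 (2.33 to 5.87) at chr7:3220165-3220386 overlapped the Mir293 hairpin, and another of 3.42 (2.22 to 5.05) lay at chr7:3222235-3222461. Both were counted as gene-body peaks since the RefSeq body of Nlrp12, on the other strand, runs over the cluster. In Larp7, whose product binds the 7SK RNA, a peak of 4.80 (3.11 to 7.10) at chr3:127544665-127544917 had its summit 430 bp from the Mir302b hairpin, upstream of the cluster on its strand. These folds were near the median of 4.40. Other hairpins overlapped by a peak were Mir153 in Ptprn2 (4.38) and Mir7653 in Tlcd1 (4.08), so 3 of 3106 peaks overlapped 1. A non-coding gene or pseudogene was overlapped by 218 peaks (7.02%), an lncRNA gene by 204.

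Chromosome X was sparse. It had 32 Naive-only gene-body peaks, or 0.731 per Mb of gene interior (0.5003 to 1.03), against 3.26 per Mb (3.15 to 3.38) over the autosomes, which ranged over 2.54 to 4.23. EpiLC-only gene-body peaks were also fewer there, at 0.160 per Mb (0.0643 to 0.330), against 0.632 on autosomes. The number of X copies in the cells and mappability on X were not tested. Among autosomes, chromosomes 4 and 17 were densest, at 4.23 per Mb each. Most of the 50 peaks with a local background over 3 times the lowest lay on chromosome 4. Its density was not recomputed without them. Chromosome 14 was lowest at 2.54 but highest for EpiLC-only peaks, at 1.21 per Mb.

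**Figure D5:**
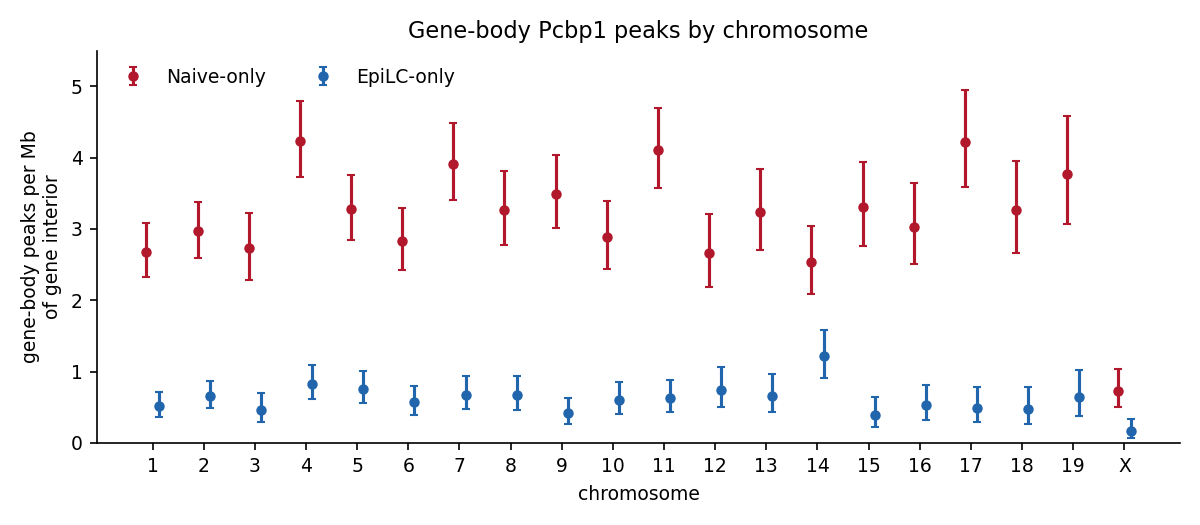
Gene-body peaks per Mb of gene interior on each autosome and on X, for Naive-only and EpiLC-only peaks (points, with 95% Poisson intervals). Every autosome lies at 2.54 or more for Naive-only peaks, and X at 0.731.

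At the limits of the definition, the 3 peaks with the smallest gap to an EpiLC peak were in Tex21 (21 bp, fold 4.70), Meikin (30 bp, 3.24) and Rpl19 (39 bp, 2.99). The 3 with the smallest overlap, and so counted as shared, were in Adam19 (27 bp, 5.07), Cdyl (28 bp, 3.40) and Sorcs2 (39 bp, 3.61). The summits nearest to a gene end were those in Rcor3 and Lrba (1001 bp; 3.996 and 4.9956) and U2af2 (1003 bp), and those left out by least were in Zfc3h1 (1000 bp, 3.06), Sgf29 (994 bp, 4.98) and Gpa33 (988 bp, 4.35). For comparison, the highest shared gene-body peaks were in Ttc21b (19.9), Kmt2d (18.7), Sp2 (15.2), Sulf1 (12.2) and Nr3c2 (12.1), and high EpiLC-only ones in Cstad (10.98), Zfhx3 (8.89), Lypd6 (8.75) and Cit (8.63).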

How the data were processed

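Pcbp1 ChIP and input libraries of 2 states, 1 each, were represented by 1 peak list per state on mm10 (GRCm38). Per the submitters' processing notes, fastp, Bowtie2, Picard and MACS2 were used, with versions and settings not given in these sources. From the deposited lists, the score, the fold over background (a ratio), −log10 p and −log10 q of each peak were read as the authors' values. The deposited −log10 p-value and fold together gave the whole number of reads at the summit for all 12132 Naive and 3494 EpiLC peaks, within 0.001 on the −log10 scale. No input values were analysed here. Genes, strands and sequences came from RefSeq (GRCm38.p6). At least 1 shared base counted as overlap. Gene interior is gene body more than 1 kb from every coding gene end. Shares have exact binomial and densities Poisson 95% intervals, which treat peaks as independent although they cluster. For a share with a count of 0 the limit is 3 counts of the total, and for a density of 0 it is the exact Poisson limit. Library totals were not at hand, so depth is known only as reads at summits.

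Named genes were hosts of the 20 highest folds and 5 widest peaks, the 10 hosts with most peaks and the 10 densest, the highest in each gene list (up to 6), those at the limits of the definition and the 5 highest of the other gene-body sets; genes at internal starts or of strong local background, hosts with EpiLC-only peaks and microRNAs were chosen after their values were seen. A few genes that the rule names are not reported here. The peaks and lists were chosen with earlier results of these data known. Scripts used Python 3.11.15, pandas 2.3.3 and scipy 1.17.1 and were tested on simulated data.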

Additional observations from a re-analysis of the deposited data

How the results depend on the processing

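The 9 results were recomputed under 8 alternatives, plus 2 chosen after seeing the data, giving 82 values, of which 60 stayed within 1.5 times (counts) or within the 95% interval (shares and the median). With a fold of at least 5, 959 peaks in 827 genes were left, with a median fold of 6.05, 34.7% within 10 kb of an end, 11.4% with a neighbour within 10 kb, 100% that would pass in EpiLC at the same fold and 2 primed hosts. With the Naive list shortened to the 3494 peaks of the EpiLC list, these were 815, 712, 6.38, 35.8%, 10.1%, 99.0% and 2, and 5.34% of hosts had a Naive gene-end peak, against 5.45% of other genes. At −log10 q of at least 5, the median fold was 4.81, the share with a neighbour 22.8% and the share passing 99.2%. More than 3 kb from coding ends, 28.1% lay within 10 kb of an end and 21.8% of hosts had a gene-end peak. With a fold of at least 5, the share passing was fixed at 100% by that cutoff. The share passing was 99.1% with a local background at most 3 times the lowest (an added choice). It was 82.8% with folds scaled by the EpiLC over Naive ratio at shared gene-body peaks (the other added choice). The 8 naive hosts stayed between 6 and 8. No paired analysis was possible because each state has 1 library. Depth limits what can be said of EpiLC at these sites, since no reads outside called peaks were analysed here.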
